A study of Homo sapiens with 5 samples.

Results

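The ERBB system was described in the human cell line Ishikawa, derived from an endometrioid cancer of the endometrium, through 10 genes of the 57992 in the count table: the receptors EGFR, ERBB2, ERBB3 and ERBB4 and the ligands AREG, EREG, HBEGF, TGFA, BTC and NRG1. They were chosen by symbol, with earlier results of these data known. Each matched 1 row, and all 10 passed the filter on low counts, EREG only through 1 of the libraries. Poly(A) RNA was sequenced from 2 libraries of cells kept for 3 days below differentiated adipocytes in the presence of EX527, an inhibitor of the deacetylase SIRT1 (EX527 co-culture), from 2 libraries of the same co-culture without the inhibitor (co-culture), and from 1 library of Ishikawa cells grown alone (monoculture). A membrane with 0.4 µm pores parted the cancer cells from the adipocytes, which had been differentiated from preadipocytes with insulin, dexamethasone and IBMX. The labels give no dose of EX527, no source of the preadipocytes and no word on whether replicates were cultured apart, so that p-values take in no more than the spread among these libraries, and that spread may be technical. No library of monoculture with EX527 is among the 5, and the labels do not say to which chamber the inhibitor was added, so an action on the cancer cells and one on the adipocytes cannot be told apart. The labels name DMEM for co-culture and DMEM-F12 for maintenance of the line, and do not say which of them the monoculture library had.

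Receptors of this family are tyrosine kinases that act in pairs. EGFR and ERBB4 bind ligands and signal, ERBB3 binds neuregulins but has little kinase activity of its own, and ERBB2 has no known ligand and serves as the preferred partner of the others. Amphiregulin (AREG) and transforming growth factor alpha (TGFA) bind EGFR, while epiregulin (EREG), betacellulin (BTC) and heparin-binding EGF-like growth factor (HBEGF) bind EGFR and ERBB4, and neuregulin 1 (NRG1) binds ERBB3 and ERBB4. The ligands are made as membrane proteins and are released by metalloproteases of the ADAM family, and signal passes through RAS and RAF to ERK and through PI3-kinase to AKT. In endometrium the family takes part in epithelial growth, and ERBB2 is amplified in some endometrial cancers.

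Libraries held 45653845 to 52269963 counted reads, at which 3 reads stand for 0.0530 to 0.0692 CPM (counts scaled to library size, with TMM factors). Both co-culture libraries were close to each other, while the EX527 pair was not: the SD of the log2 difference at 11232 well-read genes was 0.605 in EX527 co-culture and 0.112 in co-culture. At least 10 reads were counted for 33325 genes in EX527 co-culture replicate 1, against 26022 to 27103 in the other 4 libraries, so the members' results are also given without it. All 12 endometrial epithelial markers fixed for this check were above 1 CPM in every library, EPCAM at 204 to 423 CPM. Of 12 adipocyte markers none was at 0 in any library and 5 were highest in EX527 co-culture replicate 1. Among these 5, CD36 was at 6.88 CPM in that library and at 0.225 to 0.821 CPM elsewhere, CIDEA at 2.19 CPM and 0.0616 to 0.234 CPM, ADIPOQ at 0.900 CPM and 0.0205 to 0.256 CPM, FABP4 at 0.600 CPM and 0.0426 to 0.180 CPM, and LEP at 0.583 CPM and 0.0450 to 0.138 CPM. PLIN4, LIPE and GPD1 of the same list were instead lowest in that library. PLIN4 was at 3.87 CPM there and 6.385 to 7.68 CPM elsewhere. LIPE was at 5.47 CPM and 6.64 to 8.32 CPM, and GPD1 at 0.318 CPM and 0.392 to 1.33 CPM. The summed adipocyte list, mostly LPL, was at 65.0 and 70.1 CPM in EX527 co-culture, 39.5 and 40.9 CPM in co-culture and 91.5 CPM in monoculture. For 10 fibroblast and preadipocyte markers the sums were 113 and 272 CPM, 142 and 128 CPM, and 209 CPM in the same order of groups, and DCN was at 0 in EX527 co-culture replicate 2 and in co-culture replicate 1. Of these 10, 7 were highest in EX527 co-culture replicate 1, among them FAP at 2.17 CPM (0.0852 to 0.287 CPM elsewhere), PDGFRB at 1.89 CPM (0.0674 to 0.184 CPM) and DCN at 1.24 CPM (0 to 0.0922 CPM). The collagens, with more reads, were not among the 7. COL1A1 at 28.2 CPM (58.1 to 91.8 CPM elsewhere) and COL3A1 at 5.17 CPM (9.58 to 27.7 CPM) were lowest in that library. COL1A2 was at 70.3 CPM there and at 189 CPM in EX527 co-culture replicate 2. Whether these markers have a part in the results below was not tested. In bulk RNA, fewer cells of a type and less RNA per cell cannot be told apart.

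The 250 bases before the RefSeq start sites of AREG, EREG and HBEGF are shown because these were the ligands whose levels differed by the largest factors between co-culture and the other groups. AREG lies on chromosome 4 (plus strand, gene 74445136 to 74455005, bases shown chr4:74444886-74445135) and EREG lies next to it on the same strand (gene 74365145 to 74388749, bases shown chr4:74364895-74365144). HBEGF lies on chromosome 5 (minus strand, gene 140332843 to 140346603, bases shown chr5:140346604-140346853). Coordinates are GRCh38, gene spans are from GENCODE 44 and sequences are from RefSeq's table for GRCh38.p14, printed 5′ to 3′ on the gene's strand. Capitals mark matches to the cyclic AMP response element TGACGTCA or its core TGACG, and no match to the AP-1 letters TGAGTCA was found in these windows.
AREG: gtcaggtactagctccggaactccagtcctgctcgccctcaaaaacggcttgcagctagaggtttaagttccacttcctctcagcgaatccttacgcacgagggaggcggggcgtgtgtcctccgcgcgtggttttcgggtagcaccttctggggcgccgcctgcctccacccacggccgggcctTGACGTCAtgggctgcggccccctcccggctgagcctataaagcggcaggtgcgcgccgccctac
EREG: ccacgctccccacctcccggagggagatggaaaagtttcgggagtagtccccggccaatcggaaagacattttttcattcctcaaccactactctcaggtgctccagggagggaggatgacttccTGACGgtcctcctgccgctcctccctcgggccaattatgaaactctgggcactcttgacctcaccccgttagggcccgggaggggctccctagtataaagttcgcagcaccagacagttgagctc
HBEGF: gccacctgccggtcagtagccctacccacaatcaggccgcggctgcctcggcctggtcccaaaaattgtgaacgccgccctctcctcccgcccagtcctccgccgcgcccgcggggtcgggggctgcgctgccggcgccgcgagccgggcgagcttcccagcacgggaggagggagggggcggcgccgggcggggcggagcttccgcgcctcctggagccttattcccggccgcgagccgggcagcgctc

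The AREG window holds the full element TGACGTCA once, 65 to 58 bases before the start site. The only cores TGACG there are those inside that palindrome, which holds it on both strands. EREG holds 1 core TGACG, 125 to 121 bases before the start, and HBEGF holds none. Searched on both strands in the same window of 35116 promoters, the full element was present in 1.65%, the core in 21.2% and TGAGTCA in 4.20%. The hypoxia core ACGTG, present in 18.5% of promoters, was absent from these 3 windows, and GCGTG, present in 32.2%, occurred 2 times before AREG and 1 time before EREG. These are matches of letters and not sites shown to be bound.

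**Figure D1:**
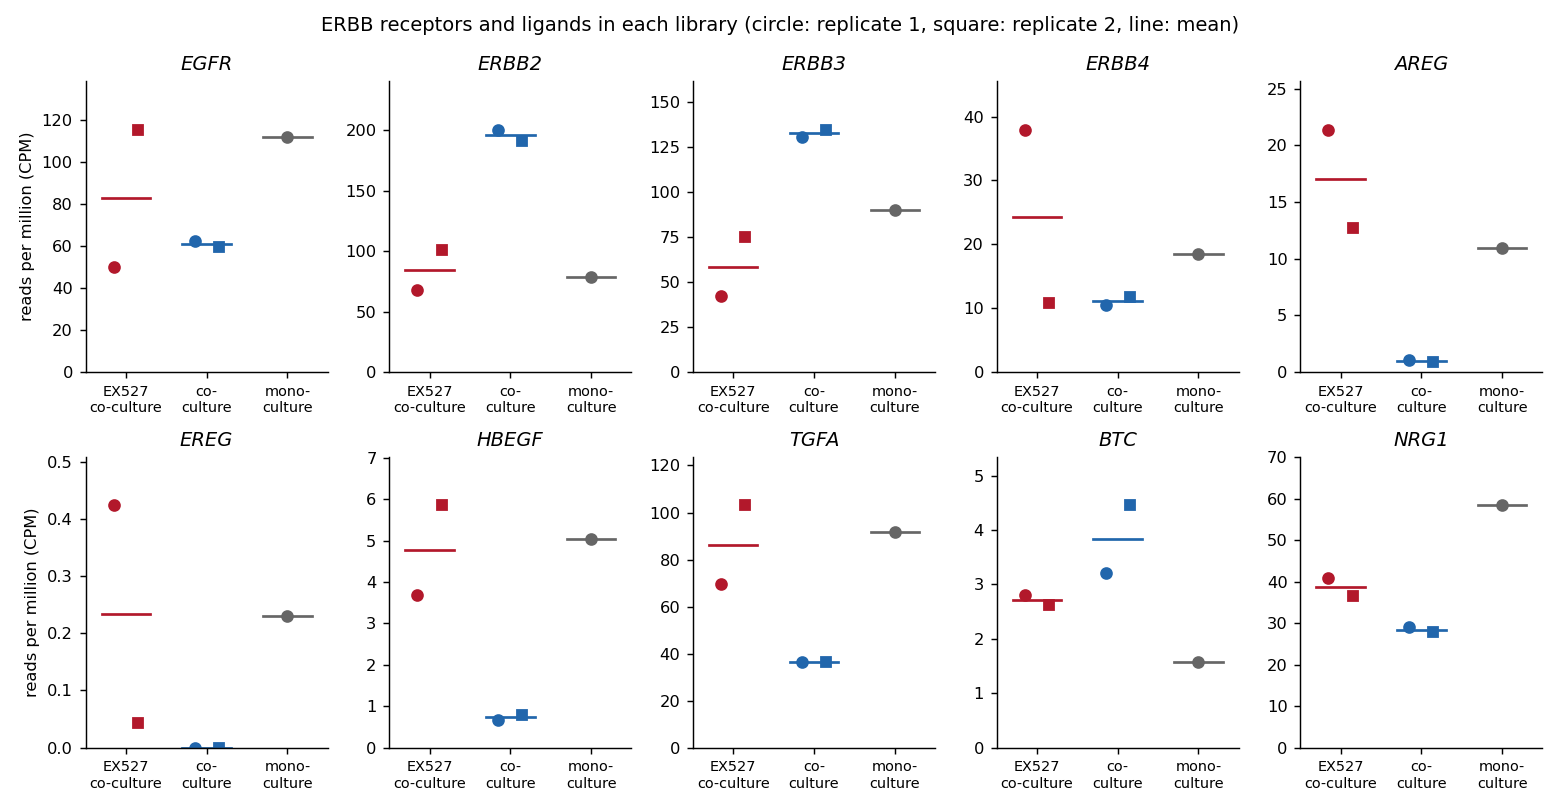
Each panel shows 1 gene, with CPM on the vertical axis and EX527 co-culture, co-culture and monoculture from left to right; circles are replicate 1, squares replicate 2 and lines group means. AREG, HBEGF and TGFA are lowest in both co-culture libraries, ERBB2 and ERBB3 are highest there, and EGFR and ERBB4 differ widely between both EX527 libraries.

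The first comparison was of EX527 co-culture with co-culture, which asks what differs in these cells when EX527 is present in the co-culture with adipocytes. AREG, HBEGF and TGFA had higher levels with EX527, ERBB2 and ERBB3 had lower ones, and EGFR and ERBB4 were split between both EX527 libraries. In the test across all genes with all 5 libraries, 0 of the 10 genes passed an edgeR adjusted p of 0.05, as did 0% of the 34658 genes tested. An unadjusted edgeR p under 0.05 was reached by 5 of the 10 (3 higher, 2 lower), against 19.3% of all genes. The DESeq2 Wald test called those 5 of the 9 members to which it gave an adjusted p, against 11.9% of all genes. Limma-voom called 0 of 10 and 0% of all genes. Its unadjusted p was under 0.05 for 5 members, against 5266 of the 34658 genes. Both EX527 libraries stood above both co-culture libraries for 5 members, against 28.3% of all genes, and below them for 3, against 26.8%. EREG is among these 5, with 24 and 2 reads against 0.

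AREG was read at 21.4 and 12.7 CPM in EX527 co-culture, against 1.03 and 0.924 CPM in co-culture, from 1212 and 598 reads against 46 and 45. Both EX527 libraries were far above both co-culture libraries, by 17.5-fold in the fit (log2 fold change 4.13, SE 0.44, edgeR unadjusted p = 0.00022, adjusted p = 0.0774). HBEGF, which also serves in its membrane-bound form in embryo attachment to the endometrium, was read at 3.69 and 5.86 CPM with EX527 and at 0.674 and 0.801 CPM without it. Its groups did not overlap either, and the log2 fold change was 2.67 (SE 0.46, edgeR adjusted p = 0.108). TGFA was the ligand with the most reads, with 69.4 and 103 CPM in EX527 co-culture and 36.5 and 36.3 CPM in co-culture (log2 fold change 1.24, SE 0.26, edgeR adjusted p = 0.133).

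EREG had 24 and 2 reads in EX527 co-culture and 0 reads in both co-culture libraries, of which 24 came from the library that stands apart. Taken over both libraries of a group, the EREG level with EX527 was 7.80-fold that of the 3 reads that a count of 0 allows. This ratio takes the EX527 reads without error and is no lower bound, and the 2 reads of replicate 2 alone are fewer than 3. Without EX527 co-culture replicate 1 EREG no longer passed the filter on low counts. NRG1 was read at 41.0 and 36.6 CPM with EX527 and at 29.1 and 27.8 CPM without it, a small difference with groups that did not overlap (log2 fold change 0.45, SE 0.19, edgeR adjusted p = 0.283). BTC was the ligand with lower values, 2.81 and 2.62 CPM with EX527 and 3.21 and 4.46 CPM without it (log2 fold change -0.50, SE 0.34, edgeR adjusted p = 0.407).

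Among the receptors, ERBB2 was read at 68.3 and 101 CPM in EX527 co-culture and at 201 and 191 CPM in co-culture. The EX527 libraries were both lower, by 2.31-fold in the fit (log2 fold change -1.21, SE 0.25, edgeR unadjusted p = 0.00481, adjusted p = 0.134). ERBB3 had 42.3 and 74.7 CPM with EX527 and 130.3 and 135 CPM without it, again with no overlap (log2 fold change -1.18, SE 0.31, edgeR adjusted p = 0.177). EGFR was read at 50.1 and 116 CPM with EX527, 1 library below and 1 above the 62.6 and 59.8 CPM of co-culture (log2 fold change 0.44, SE 0.42, edgeR adjusted p = 0.535). ERBB4 had 38.0 CPM in EX527 co-culture replicate 1 but 10.7 CPM in replicate 2, within the 10.5 and 11.8 CPM of co-culture (log2 fold change 1.13, SE 0.61, edgeR adjusted p = 0.343). The endometrial epithelial markers moved the same way as ERBB2 and ERBB3: 11 of 12 were lower in both EX527 libraries, against 26.8% of all genes, with sums of 1483 and 2589 CPM in EX527 co-culture and 7238 and 6604 CPM in co-culture, and their part in the result was not tested.

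When 1 EX527 library was left out, only the co-culture pair was left to set the spread, and the single libraries of EX527 co-culture and monoculture were assumed to share it. EREG passed the filter on low counts only where EX527 co-culture replicate 1 was present. Its call without replicate 2 thus rests on that library alone. Without EX527 co-culture replicate 1, edgeR called AREG, HBEGF, TGFA, EGFR and NRG1 as higher, against 21.7% of all genes, and ERBB2 and ERBB3 as lower, against 22.6%. Without replicate 2 it called AREG, HBEGF, TGFA, NRG1, EREG and ERBB4 as higher, against 39.1% of all genes, and ERBB2, ERBB3 and EGFR as lower, against 31.1%. EGFR therefore depended on which library was used, at 0.92 (adjusted p = 6.38e-26) without replicate 1 and -0.24 (adjusted p = 0.0185) without replicate 2, and so did ERBB4, at -0.06 (adjusted p = 0.794) and 1.81 (adjusted p = 2.8e-17). AREG kept log2 fold changes of 3.71 and 4.50, HBEGF of 2.99 and 2.36, TGFA of 1.51 and 0.98, ERBB2 of -0.94 and -1.48 and ERBB3 of -0.82 and -1.60 in these fits. Leaving out either library of the co-culture pair left no member called, where the EX527 pair set the spread.

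**Figure D2:**
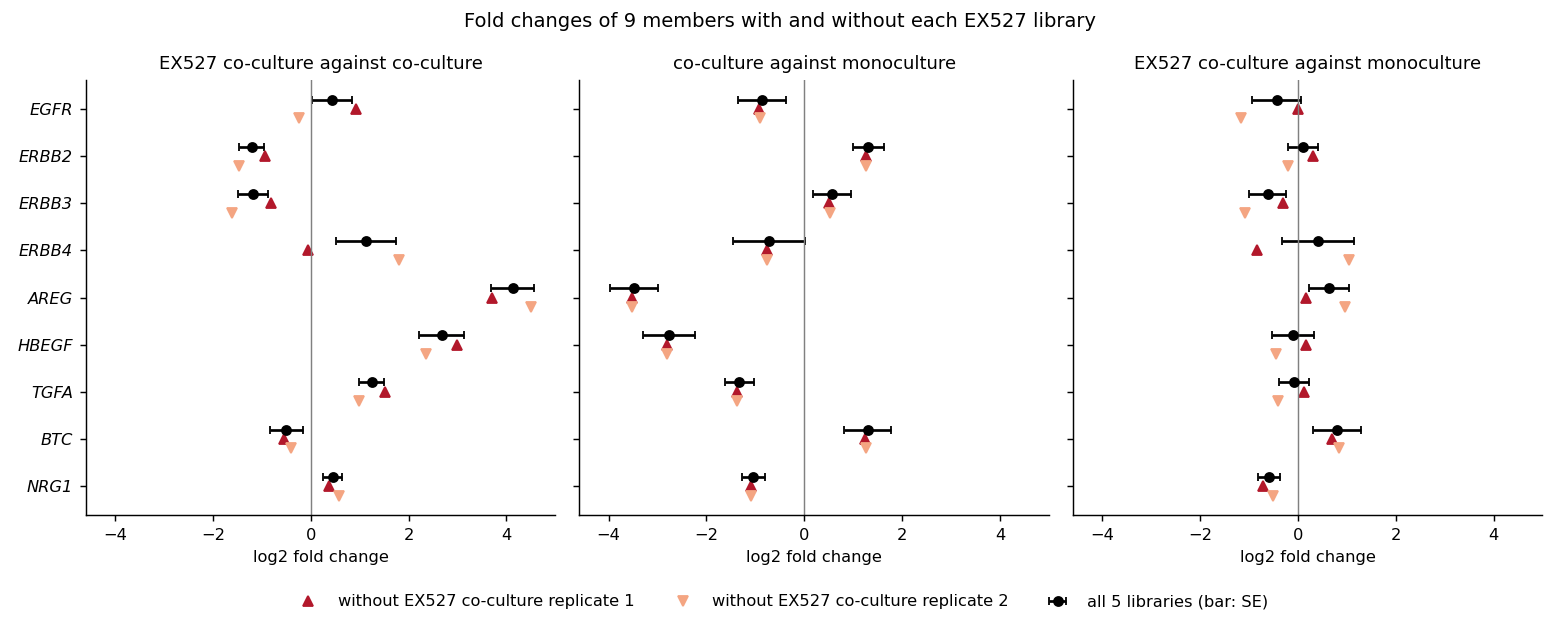
Log2 fold changes (horizontal axis) of 9 genes (rows) in the 3 comparisons, without EREG, whose co-culture libraries held 0 reads. Black points are the fit of all 5 libraries with their SE, and triangles are fits without EX527 co-culture replicate 1 (pointing up) or 2 (pointing down); AREG, HBEGF, TGFA, ERBB2 and ERBB3 keep their direction in the left panel, while EGFR and ERBB4 change sign.

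The second comparison was of co-culture with monoculture, which asks what differs in the cancer cells after growth beside adipocytes. AREG, HBEGF, TGFA and NRG1 had lower levels in co-culture, ERBB2 and BTC had higher ones, and EGFR was lower in both libraries without passing an unadjusted p of 0.05. With all 5 libraries 0 of the 10 genes passed an edgeR adjusted p of 0.05, as did 0% of all genes, and 6 of the 10 (2 higher, 4 lower) had an unadjusted p under 0.05, against 15.9% of all genes. DESeq2 called 5 of 9 members, 4 of them lower and ERBB2 higher, against 12.8% of all genes. Limma-voom called 0 of 10 and 0% of all genes. Its unadjusted p was under 0.05 for 5 members, against 4848 of 34658 genes. Since monoculture is 1 library, groups seldom overlap: both co-culture libraries were below it for 7 members, against 40.7% of all genes, and above it for 3, against 42.8%. EREG is among these 7, with 0 reads against 10. Both comparisons share the co-culture libraries, so their values are given side by side and not counted as separate evidence.

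AREG was at 1.03 and 0.924 CPM in co-culture, against 10.9 CPM in monoculture (log2 fold change -3.48, SE 0.50, edgeR unadjusted p = 0.000931, adjusted p = 0.122). HBEGF was at 0.674 and 0.801 CPM in co-culture, against 5.05 CPM in monoculture (log2 fold change -2.77, SE 0.53, edgeR adjusted p = 0.135). TGFA was at 36.5 and 36.3 CPM in co-culture, against 91.6 CPM in monoculture (log2 fold change -1.33, SE 0.30, edgeR adjusted p = 0.157). These 3 EGFR ligands were thus 11.2-fold, 6.80-fold and 2.52-fold lower beside adipocytes in the fit. NRG1 was at 29.1 and 27.8 CPM, against 58.5 CPM in monoculture (log2 fold change -1.04, SE 0.23, edgeR adjusted p = 0.152). EREG had 0 reads in both co-culture libraries and 10 in monoculture. The monoculture level was 7.16-fold that of the same allowance of 3 reads, with its 10 reads taken without error. BTC ran the other way, at 3.21 and 4.46 CPM in co-culture, against 1.57 CPM in monoculture (log2 fold change 1.29, SE 0.48, edgeR adjusted p = 0.291).

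ERBB2 was at 201 and 191 CPM in co-culture, against 79.0 CPM in monoculture, 2.48-fold higher in the fit (log2 fold change 1.31, SE 0.32, edgeR unadjusted p = 0.00978, adjusted p = 0.172). ERBB3 was at 130.3 and 135 CPM in co-culture, against 89.8 CPM in monoculture (log2 fold change 0.56, SE 0.39, edgeR adjusted p = 0.591). EGFR was at 62.6 and 59.8 CPM in co-culture, against 112 CPM in monoculture (log2 fold change -0.87, SE 0.49, edgeR adjusted p = 0.495), and ERBB4 at 10.5 and 11.8 CPM and 18.5 CPM (log2 fold change -0.72, SE 0.73, edgeR adjusted p = 0.754). Epithelial markers again went with ERBB2 and ERBB3, with 11 of 12 higher in both co-culture libraries, against 42.8% of all genes, and sums of 7238 and 6604 CPM in co-culture and 2512 CPM in monoculture. Without EX527 co-culture replicate 1, edgeR called 3 of the 9 members tested as higher, against 26.9% of all genes, and 6 as lower, against 27.1%. Without replicate 2 it called 3 of 10 as higher, against 22.1%, and 7 as lower, against 22.5%, with the same directions as in the fit of all libraries.

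The third comparison was of EX527 co-culture with monoculture. With all 5 libraries 0 of 10 members and 0% of all genes passed an edgeR adjusted p of 0.05, and 1 member, NRG1, had an unadjusted p under 0.05, against 7.37% of all genes. DESeq2 called 0 of 9 members, against 0.279% of all genes. Limma-voom called 0 of 10 and 0% of all genes. Its unadjusted p was under 0.05 for 0 members, against 2034 of 34658 genes. NRG1 and ERBB3 were lower in both EX527 libraries than in monoculture, against 27.1% of all genes, and AREG and BTC were higher, against 33.7%. AREG was at 21.4 and 12.7 CPM with EX527, against 10.9 CPM in monoculture, a log2 fold change of 0.65 (SE 0.41, edgeR adjusted p = 0.618). HBEGF, at 3.69 and 5.86 CPM with EX527, enclosed the 5.05 CPM of monoculture (log2 fold change -0.09, SE 0.43, edgeR adjusted p = 0.932), and its sign turned when library size alone was used for scaling (0.15). TGFA, at 69.4 and 103 CPM, enclosed the 91.6 CPM of monoculture (log2 fold change -0.09, SE 0.31, edgeR adjusted p = 0.909) and turned sign in the same way (0.15). ERBB2, at 68.3 and 101 CPM, enclosed the 79.0 CPM of monoculture (log2 fold change 0.10, SE 0.31, edgeR adjusted p = 0.893). These tests do not show that levels were alike, since the SE of each difference was 0.23 or more.

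NRG1 was the member with the smallest p here, at 41.0 and 36.6 CPM with EX527, against 58.5 CPM in monoculture (log2 fold change -0.59, SE 0.23, edgeR unadjusted p = 0.0493, adjusted p = 0.614). It was lower in both fits that left out 1 EX527 library, at -0.72 without replicate 1 and -0.51 without replicate 2. ERBB3 was lower in both too, at -0.31 and -1.08. These fits set 1 library against 1, and only the co-culture pair, which lay closer together than the EX527 pair, gives their spread. Calls in them thus do not take in the spread of either group compared. Without replicate 1, edgeR called ERBB2 as higher, against 14.7% of all genes, and ERBB3, ERBB4 and NRG1 as lower, against 19.1%. Without replicate 2 it called AREG, BTC and ERBB4 as higher, against 33.4% of all genes, and EGFR, ERBB3, TGFA and NRG1 as lower, against 28.8%. ERBB4 stood on opposite sides in these fits, at -0.83 without replicate 1 and 1.04 without replicate 2.

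A ratio of reads of 2 genes in 1 library does not depend on how libraries are scaled. Reads of EGFR per read of ERBB2 were 0.735 and 1.14 in EX527 co-culture, 0.312 and 0.313 in co-culture and 1.42 in monoculture. Both EX527 libraries were thus above both co-culture libraries and below monoculture, although EGFR itself overlapped between groups. Reads of EGFR per read of ERBB3 were 1.19 and 1.55 with EX527, 0.480 and 0.444 in co-culture and 1.25 in monoculture, so that here the EX527 libraries were again above co-culture but enclosed monoculture. Reads of TGFA per read of BTC were 24.7 and 39.4 with EX527, 11.4 and 8.15 in co-culture and 58.4 in monoculture. AREG had 5.80 and 2.17 reads per read of HBEGF with EX527, 1.53 and 1.15 in co-culture and 2.17 in monoculture. This proportion was thus highest in EX527 co-culture replicate 1, while replicate 2 was at the value of monoculture. The co-culture ratios rest on 30 to 46 reads per gene.

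Levels of different genes were compared as CPM per kilobase of merged exons in GENCODE 44, which may differ from the authors' annotation and counts rare long exons in full. In co-culture the receptors ranked ERBB2 (19.4 and 18.5 CPM per kb), ERBB3 (11.1 and 11.5), EGFR (3.92 and 3.75) and ERBB4 (0.81 and 0.909), each apart from the next. With EX527 ERBB2 came first in both libraries (6.61 and 9.81 CPM per kb), EGFR (3.15 and 7.25) and ERBB3 (3.61 and 6.38) could not be ordered beyond their spread, and ERBB4 came last (2.92 and 0.825). In monoculture ERBB3 (7.67), ERBB2 (7.65) and EGFR (7.03 CPM per kb) lay close together, with ERBB4 at 1.42. EGFR thus made up 19.3% and 29.9% of the summed receptor level per kb with EX527, 11.1% and 10.8% in co-culture and 29.6% in monoculture. ERBB2 made up 40.6% and 40.4% with EX527, 55.1% and 53.4% in co-culture and 32.2% in monoculture.

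Of the 6 ligands TGFA had the highest level per kb in all 5 libraries, at 14.1 and 21.0 CPM per kb with EX527, 7.43 and 7.38 in co-culture and 18.6 in monoculture. AREG came next with EX527 (13.03 and 7.75 CPM per kb) and in monoculture (6.67), but in co-culture it was at 0.63 and 0.563, below BTC (1.21 and 1.68) and NRG1 (1.36 and 1.30), which overlapped each other. The share of AREG in the summed ligand level was 41.5% and 23.2% with EX527, 5.80% and 5.03% in co-culture and 22.0% in monoculture. BTC went the other way, with 3.37% and 2.96% with EX527, 11.2% and 15.0% in co-culture and 1.95% in monoculture. HBEGF and EREG had the lowest levels in co-culture, HBEGF at 0.226 and 0.268 CPM per kb.

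**Figure D3:**
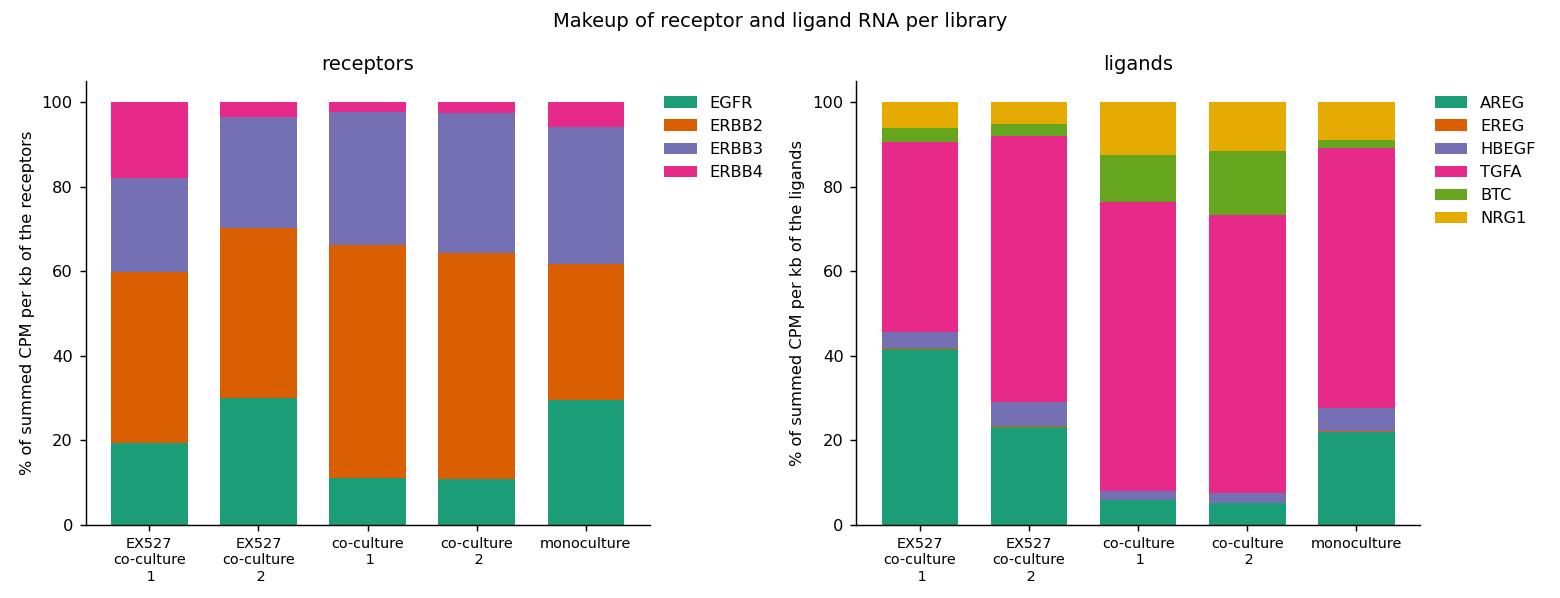
Stacked bars give each gene's percentage of the summed CPM per kilobase of the 4 receptors (left) and of the 6 ligands (right) in the 5 libraries, EX527 co-culture first. EGFR takes 10.8% to 11.1% of the receptor level in co-culture and 19.3% to 29.9% elsewhere, and AREG takes 5.03% to 5.80% of the ligand level in co-culture and 22.0% to 41.5% elsewhere.

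Some reads of the receptors could belong to neighbours, since the strand setting of the counting is not given. EGFR shares 186 exon bases with the antisense gene EGFR-AS1, itself at 0.636 and 3.77 CPM with EX527, 1.55 and 1.38 CPM in co-culture and 5.26 CPM in monoculture. ERBB2 shares 571 exon bases with MIEN1 and 144 with PGAP3, both on the other strand. ERBB3 shares 31 exon bases with a gene on its own strand that had 4230 or more reads in every library. How many of those reads fall in the shared bases is not known. NRG1 shares 189 exon bases with a gene on its own strand that is absent from the counts. In NRG1 the intronic transcript NRG1-IT1 had 1.87 and 0.575 CPM with EX527, 1.55 and 1.23 CPM in co-culture and 0.254 CPM in monoculture. The ligand genes AREG, EREG and BTC lie with EPGN, the gene of epigen, within 486 kb of chromosome 4. EPGN was at 0.0706 and 0.0639 CPM with EX527, 0.135 and 0.205 CPM in co-culture and 0.0461 CPM in monoculture, too few reads to pass the filter or to give a direction.

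Genes with the profile closest to EGFR over the 5 libraries, by the root mean square difference of centred log2 CPM among 14222 genes, were WDR24 (0.05), STK40 (0.05) and ISY1-RAB43 (0.06). WDR24, for example, was read at 25.1 and 56.4 CPM with EX527, 33.0 and 30.4 CPM in co-culture and 54.1 CPM in monoculture. For AREG they were STK32A (0.21), BAHCC1 (0.38) and PDE10A (0.41), which were farther away. STK32A was read at 43.5 and 38.2 CPM with EX527, 2.23 and 2.38 CPM in co-culture and 23.1 CPM in monoculture.

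Of the remaining ligands EGF, EPGN, NRG2, NRG3 and NRG4, 4 passed the filter and none was called with all 5 libraries in any comparison (median log2 fold change 0.16 for EX527 co-culture against co-culture and 0.45 for co-culture against monoculture, where all genes had 0.15 and 0.05). The first median was -0.61 without EX527 co-culture replicate 1, where edgeR called NRG2 as higher (against 21.7% of all genes) and EGF, NRG3 and NRG4 as lower (against 22.6%), and 0.68 without replicate 2, where it called NRG2 and NRG3 as higher (against 39.1%) and 0 as lower (against 31.1%). For co-culture against monoculture both co-culture libraries were above monoculture for 3 of the 4, against 42.8% of all genes, and below it for NRG2, against 40.7%. NRG2, a neuregulin, was at 5.03 and 1.19 CPM with EX527 and 0.315 and 0.226 CPM without it (log2 fold change 3.56, SE 1.02, edgeR adjusted p = 0.187). It was highest in the library that stands apart, and its log2 fold change was 2.15 without that library. EGF itself was at 4.29 and 3.38 CPM with EX527 and 6.11 and 5.79 CPM without it (log2 fold change -0.63, SE 0.29, edgeR adjusted p = 0.298), and at 4.13 CPM in monoculture. NRG3 and NRG4 were read at 13.2 to 40.3 CPM in all libraries.

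Of 11 genes for ligand release, none was called with all 5 libraries, and 3 were lower and 1 higher at an unadjusted p under 0.05 with EX527 against co-culture, 4 of 11 where all genes had 19.3% (median log2 fold change -0.30, all genes 0.15). The median was -0.08 without EX527 co-culture replicate 1, where all genes had -0.0051, and -0.49 without replicate 2, where all genes had 0.16. ADAM19, a metalloprotease that cleaves neuregulin, was at 7.24 and 7.15 CPM with EX527, against 24.9 and 21.0 CPM in co-culture (log2 fold change -1.67, SE 0.23, edgeR adjusted p = 0.0826). It was at 5.90 CPM in monoculture, below co-culture (co-culture against monoculture 1.96, SE 0.31, edgeR adjusted p = 0.125). TIMP3, an inhibitor of ADAM17, was at 2.70 and 1.36 CPM with EX527, 0.405 and 0.575 CPM in co-culture and 2.88 CPM in monoculture. ADAM17, the main protease for TGFA, AREG and HBEGF, was at 71.6 and 76.2 CPM with EX527 and 71.1 and 72.4 CPM in co-culture, with overlapping groups (log2 fold change 0.04, SE 0.18), and at 130.3 CPM in monoculture (co-culture against monoculture -0.86, SE 0.21, edgeR adjusted p = 0.171). ADAM10, the main protease for BTC, was at 149 and 193 CPM with EX527, against 372 CPM in monoculture (log2 fold change -1.12, SE 0.25, edgeR adjusted p = 0.614). ADAM12, another metalloprotease able to release HBEGF, was at 11.1 CPM in EX527 co-culture replicate 1 but 0.894 CPM in replicate 2, against 0.599 CPM in monoculture (log2 fold change 3.35, SE 1.80, edgeR adjusted p = 0.614). Without replicate 1 the log2 fold change of ADAM12 was 0.53 (SE 0.62, edgeR adjusted p = 0.552).

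Inside the cell, none of 23 adaptors and kinases was called with all 5 libraries. With EX527 against co-culture 0 were higher and 3 lower at an unadjusted p under 0.05, where all genes had 19.3% in both directions (median log2 fold change -0.21, all genes 0.15). The median turned to 0.05 without EX527 co-culture replicate 1, with 10 called as higher (against 21.7% of all genes) and 7 as lower (against 22.6%), and was -0.45 without replicate 2, with 5 as higher (against 39.1%) and 14 as lower (against 31.1%). PIK3R2, a regulatory subunit of PI3-kinase, was at 26.4 and 63.1 CPM with EX527 and 139.6 and 135.5 CPM in co-culture (log2 fold change -1.62, SE 0.43, edgeR adjusted p = 0.177), and its log2 fold change was -1.12 with only replicate 2 of EX527 co-culture in the fit and -2.33 with only its replicate 1. Between co-culture and monoculture 1 was higher and 7 lower at an unadjusted p under 0.05, against 15.9% of all genes in both directions (median -0.42, all genes 0.05). PIK3CA, a catalytic subunit of PI3-kinase, was at 40.1 and 42.4 CPM in co-culture, against 96.5 CPM in monoculture (log2 fold change -1.23, SE 0.22, edgeR adjusted p = 0.130), and HRAS, a RAS protein, at 33.9 and 30.3 CPM and 15.8 CPM (log2 fold change 1.02, SE 0.26, edgeR adjusted p = 0.182). SOS2, which loads RAS with GTP, was at 54.4 CPM in both EX527 libraries, against 42.0 and 44.1 CPM in co-culture (log2 fold change 0.34, SE 0.18, edgeR adjusted p = 0.342).

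Of 20 inhibitors and genes of receptor turnover, none was called with all 5 libraries, and between co-culture and monoculture 2 were higher and 7 lower at an unadjusted p under 0.05, against 15.9% of all genes in both directions (median log2 fold change -0.65, all genes 0.05). CBLB, a ubiquitin ligase that marks active receptors for degradation, was at 42.1 and 48.6 CPM in co-culture, against 107 CPM in monoculture (log2 fold change -1.25, SE 0.23, edgeR adjusted p = 0.132). With EX527 it was at 39.2 and 43.6 CPM, so that both co-culture groups lay below monoculture. LRIG3, a membrane protein of the LRIG family, was at 6.66 and 12.8 CPM with EX527, 34.4 and 34.8 CPM in co-culture and 13.1 CPM in monoculture (EX527 co-culture against co-culture -1.84, SE 0.35, edgeR adjusted p = 0.121). SH3KBP1, an adaptor in the uptake of active receptors, was at 32.0 and 29.1 CPM with EX527, against 19.1 and 16.7 CPM in co-culture (log2 fold change 0.77, SE 0.21, edgeR adjusted p = 0.179). CBLC, a ligase of the CBL family, was at 2.37 and 1.77 CPM with EX527, against 1.66 CPM in monoculture (log2 fold change 0.33, SE 0.50, edgeR adjusted p = 0.778). ERRFI1, a feedback inhibitor that binds the EGFR kinase, is named after its values were seen: it was at 31.3 and 51.6 CPM with EX527, 20.7 and 22.4 CPM in co-culture and 75.6 CPM in monoculture (co-culture against monoculture -1.81, SE 0.35, edgeR adjusted p = 0.134).

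The 10 transcripts of the ERK output list are genes known to be induced by ERK signalling. With EX527 against co-culture 0 were higher and 1 lower at an unadjusted p under 0.05, where all genes had 19.3% (median log2 fold change -0.22, all genes 0.15). Between co-culture and monoculture 0 were higher and 2 lower, where all genes had 15.9% (median -0.01, all genes 0.05), with none called in any comparison with all 5 libraries. PHLDA1 was at 17.8 and 28.0 CPM with EX527 and 52.1 and 51.8 CPM without it (log2 fold change -1.18, SE 0.28, edgeR adjusted p = 0.153). The transcription factor ETV5 was at 40.5 and 36.7 CPM in co-culture, against 93.4 CPM in monoculture (log2 fold change -1.27, SE 0.29, edgeR adjusted p = 0.158), and at 43.8 and 62.7 CPM with EX527. DUSP6, the phosphatase that turns off ERK, was at 62.0 and 109 CPM with EX527, 130.5 and 118 CPM in co-culture and 88.2 CPM in monoculture. EPHA4, a receptor tyrosine kinase, was at 7.57 and 5.17 CPM with EX527, around the 5.44 CPM of monoculture (log2 fold change 0.24, SE 0.38, edgeR adjusted p = 0.790), and its log2 fold change was -0.11 without replicate 1. For EX527 co-culture against co-culture without EX527 co-culture replicate 1, edgeR called 2 of the 10 as higher, against 21.7% of all genes, and 2 as lower, against 22.6% (median -0.01, all genes -0.0051). Without replicate 2 it called 2 as higher, against 39.1%, and 7 as lower, against 31.1% (median -0.50, all genes 0.16).

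**Figure D4:**
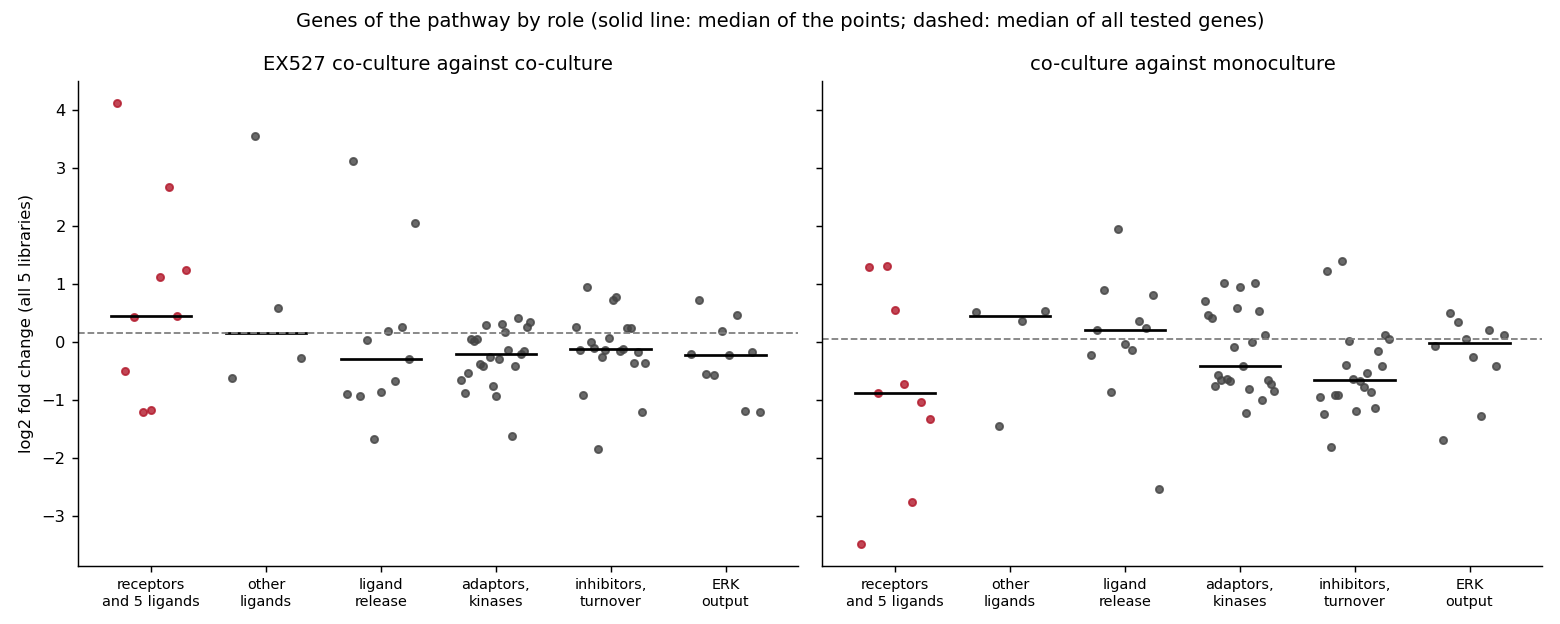
Log2 fold changes with all 5 libraries (vertical axis) of the members without EREG (red) and of 5 lists of the pathway (grey), for EX527 co-culture against co-culture (left) and co-culture against monoculture (right). Solid lines are medians of the points and the dashed line is the median of all tested genes (0.15 and 0.05). AREG, HBEGF and, narrowly on the left, ERBB2 lie outside the range of the ERK output list in both panels. TGFA and ERBB4 lie outside it on the left only, and ERBB3 and BTC on the right only.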

How the data were processed

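The authors deposited raw counts per gene for 57992 genes in 5 libraries. Per the labels' protocols, 500 ng of RNA from each sample was poly(A)-selected and amplified by 12 cycles, and reads freed of ribosomal RNA were mapped with STAR v2 to GRCh38.p7. The submitters' processing notes also name fastp, featureCounts and DESeq2. The strand setting and the handling of shared reads were not given in the sources used here. No intervals from counts alone are given, and each SE takes in the spread among the libraries of its fit.

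Counts were tested with edgeR 4.0.16 in R 4.3.3: filterByExpr (minimum count 10), TMM, 1 coefficient per group over all 5 libraries (2 residual degrees of freedom), quasi-likelihood F-test with the edgeR 4 dispersion estimate, Benjamini-Hochberg adjustment over 34658 genes and a threshold of 0.05. The SE is the absolute log2 fold change over the root of F. DESeq2 1.42.0 and limma-voom (limma 3.58.1) were alternatives. Centred log2 CPM used a prior count of 2. The members and lists were chosen with earlier results of these data known, so they are described by counts and medians beside all genes. Of each pathway list the text names called genes or, where none was called, the gene with the smallest p in each direction per comparison; SPRY2 and SPRY4 count in 2 lists. The values of 1 gene that this rule names are not reported here. RefSeq's promoter table held no entry for ERBB3 or NRG1, and EGFR and TGFA each had more than 1 entry.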

Additional observations from a re-analysis of the deposited data

How the results depend on the processing

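Directions of the 10 members for EX527 co-culture against co-culture held under every scaling, filter and tool tried, and for co-culture against monoculture under every alternative that gave a value: EREG had none without EX527 co-culture replicate 1, and the fits of the 4 co-culture libraries hold no monoculture. With library size alone all genes had a median log2 fold change of 0.42 for EX527 co-culture against co-culture, where TMM gave 0.15, and the members kept their directions relative to 0. All genes called with EX527 against co-culture numbered 21 with edgeR's older dispersion estimate, 3497 with DESeq2 (5 members) and 0 to 24078 when 1 library was left out (0 to 9 members). Co-culture against monoculture gave 2472 with DESeq2 (5 members) and 0 to 15861 when 1 library was left out (0 to 10 members), and EX527 co-culture against monoculture gave 59 and 0 to 21330 (0 to 7 members). In each range 0 came from leaving out a co-culture library, since the spread is then set by the EX527 pair.

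Replicate numbers are shared by both co-culture groups, but nothing says that a number marks a shared culture, and the deviations of same-numbered libraries correlated at -0.363 over 11232 genes. With a replicate block edgeR called 867 of 28143 genes and 2 of 9 members. With the numbers crossed, an alternative chosen after seeing the data, it called 3382 of 28143 genes and 5 of 9 members.

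Signs turned as follows, and the cause was not tested. When 1 library was left out, log2 fold changes with EX527 against co-culture ran from -0.24 to 0.92 for EGFR and from -0.055 to 1.81 for ERBB4. Against monoculture they ran from -1.16 to 0.0043 for EGFR, -0.21 to 0.32 for ERBB2, -0.83 to 1.04 for ERBB4, -0.45 to 0.17 for HBEGF and -0.40 to 0.13 for TGFA. There, HBEGF and TGFA were at 0.15 and 0.15 with library size alone, and EREG was at -0.56 with limma-voom, where counts of 0 to 24 reads limit any value.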
